A study of Mus musculus with 4 samples.

Results

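The genes described here are the matrix metalloproteases (MMPs), the ADAM, ADAMTS and ADAMTSL families and the tissue inhibitors of metalloproteases (TIMPs), measured in mouse embryonic fibroblasts (MEFs). The members are all gene symbols on the array made of Mmp, Timp, Adam, Adamts or Adamtsl followed by a number. The rule found 76 genes of 27656 gene names, read by 131 of 41174 probes. They comprised 14 secreted MMPs, 7 MMPs anchored to the membrane, 28 ADAMs, 18 ADAMTS genes, 5 ADAMTSL genes and 4 TIMPs.

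These enzymes cut proteins at and around the cell surface. Secreted MMPs degrade collagens, gelatin, fibronectin and proteoglycans, and the membrane MMPs act on the same matrix beside the cell and activate some secreted MMPs. ADAMs are membrane proteins, many of which shed growth factors, cytokines and receptors from the cell surface, while ADAMTS enzymes are secreted and cut proteoglycans such as versican and aggrecan or trim procollagens. ADAMTSL proteins resemble ADAMTS enzymes but lack the protease domain, and TIMPs bind the active site and block it. In fibroblasts, which build and remodel connective tissue, several of these genes respond to growth factors through AP-1, a dimer of Fos and Jun proteins. Lats2 encodes a Hippo pathway kinase that holds back the coactivators YAP and TAZ when cells are crowded, and these bind DNA through TEAD proteins.

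The MEFs came from C57BL/6J mice of genotype Lats2-/- (called KO) or Lats2+/+ (called WT). Each genotype was cultured at low density, sampled at 48 h before confluence, and at high density, sampled after 3 to 5 days. Low and high density RNA of a genotype were hybridised together on 2-colour arrays, with 2 arrays per genotype whose dyes were exchanged. Whether an array pair shared its RNA extracts, or how many embryos gave the cells, was not given in the labels, so the pair was taken as 1 replicate measured in both dye orientations. No difference below therefore has a replicate check or a p-value, and the error given is the gap between the arrays of a pair. Time in culture changed together with density. Both WT arrays lay on 1 slide and the KO arrays on other slides scanned on other days, so slide, scan day and genotype cannot be told apart.

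The arrays held 43379 features each, of which 62.56 and 67.66% were well above background in the channels of KO array 1 and 52.8 to 56.18% in the other channels. The technical SD of a probe's density ratio on a single array of a dye swap was 0.141 on the log2 scale in WT and 0.205 in KO. All 7 fibroblast markers (such as Col1a1 and Pdgfra) were well above background in every channel. The defining macrophage markers Emr1, Ptprc and Itgam were dark in every channel, as were 5 of 6 endothelial, 3 of 5 epithelial and 5 of 6 neutrophil markers. Of the 7 macrophage markers, 2 were well above background in every channel. The log2 of the summed signal of all 7 was 9.90 to 10.05 in WT. In KO it was 10.75 to 10.96 at low and 12.14 to 12.46 at high density. On the log2 scale Lyz2 was higher in KO than in WT by 4.75 at high density. At low density, where Lyz2 was dark in WT, it was higher in KO by at least 3.90. Within KO, Lyz2 was 3.6-fold higher at high than at low density. Of the other macrophage markers detected, Cd14 gave KO over WT ratios of -1.80 and -1.59 and Cd68 of -0.10 and -0.38, while Csf1r differed in sign between the dyes at both densities. The log2 of the summed signal of the 5 epithelial markers was 10.51 to 10.66 in WT at low density and 8.26 to 9.27 elsewhere. Epcam, Cdh1 and Krt8 were the dark ones, and Krt18 was above background in WT at low density alone. Krt19 was lower at high density by 4.50-fold in WT and 4.55-fold in KO. It was lower in KO than in WT by 3.83-fold at low and 3.87-fold at high density. The part of these markers in the differences below was not tested. Of 4 Lats2 probes, 3 were higher on the KO arrays at both densities and 1 was lower at both, against the label at most probes. Which part of Lats2 was deleted, and so whether these probes lie in it, was not given in the sources used here. The study checked the knockout in its MEFs by a western blot of Lats2 protein, which runs as the labels say and is not part of these data. KO and WT stand for the labels throughout.

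At their brightest probe, 31 of the 76 genes were well above background in all 8 channels, 18 in none and 27 in some. Over all probes of a gene, 17 were dark in every channel, since a second Mmp1a probe was above background in 2 KO channels, both on KO array 1. These 17 dark genes included Mmp7, Mmp8, Mmp10, Mmp12 and Mmp20, of the secreted MMPs, and Adam2, Adam7 and Adam18, of the ADAMs. With Mmp1a and the genes that did not reach the detection asked for, 28 genes had no comparison at their brightest probe. A gene stands here for its brightest probe, and it entered a comparison where it was well above background in both arrays on at least 1 side. It was counted as higher or lower where the mean log2 ratio reached 1 in either direction, a 2-fold difference, and the arrays (or dyes) had the same sign. By this count 33 genes differed in at least 1 of 5 comparisons, and 15 were compared and differed in none. The 33 were 68.8% of the 48 members compared, and the same count over all 16137 genes compared was 31.0%. In RNA from a mixed culture, fewer cells of a type and less RNA per cell cannot be told apart.

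One sequence feature set a group of these genes apart from the promoters as a whole, and the arrays did not measure binding to it. RefSeq promoters (build GRCm38.p6, the 250 bases before the start) were given for 46 of the 76 genes. The AP-1 motif TGACTCA, read on both strands, stood in 8 of these 46 genes (17.4%), against 5.16% of 27025 genes with a promoter. The TEAD motif GGAATG stood in 3 of 46 (6.52%), namely Adam19, Adamts13 and Timp1, against 14.4% of all genes. The motifs can share their end letters, TG or CA. Of the 8 genes with the AP-1 motif, 6 belong to a row of 8 MMP genes on chromosome 9, which spans 415 kb by the array's probe positions (build mm8). The other 38 genes with a promoter held the AP-1 motif in 2 cases, Adam19 and Adam29. The windows below are shown because Mmp3 and Mmp13, the genes of this row that entered a comparison, share the motif with neighbours that entered none. Each line reads 5′ to 3′ along the gene's strand, with the AP-1 motif in capitals. TGAGTCA is the motif read from the other strand.
Mmp3 (chr9:7445746-7445812, plus strand, motif 46 bases before the start): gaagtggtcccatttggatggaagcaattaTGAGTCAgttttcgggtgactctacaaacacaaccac
Mmp13 (chr9:7272449-7272513, plus strand, motif 35 bases before the start): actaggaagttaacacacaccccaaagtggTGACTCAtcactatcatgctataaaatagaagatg
Mmp1a (chr9:7464038-7464104, plus strand, motif 73 bases before the start): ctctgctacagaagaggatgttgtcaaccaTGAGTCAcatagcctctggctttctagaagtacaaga
Mmp10 (chr9:7502249-7502315, plus strand, motif 63 bases before the start): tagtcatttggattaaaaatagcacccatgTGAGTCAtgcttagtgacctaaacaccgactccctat
Mmp12 (chr9:7347300-7347366, plus strand, motif 44 bases before the start): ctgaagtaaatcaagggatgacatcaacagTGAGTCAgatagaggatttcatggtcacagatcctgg
Mmp7 (chr9:7691997-7692063, plus strand, motif 63 bases before the start): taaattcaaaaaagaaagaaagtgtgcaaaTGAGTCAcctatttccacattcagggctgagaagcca

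At high density, more of the family was higher than lower in both genotypes. In WT, 12 of 39 genes compared were higher and 4 lower, with a median log2 ratio of 0.66. Over all 14875 genes compared in WT, 9.41% were higher and 6.09% lower, and the median was 0.06. In KO, 15 of 47 genes were higher and 4 lower, with a median of 0.38. Over all 15433 genes compared in KO, 7.15% were higher and 3.87% lower, and the median was 0.06. A gene can enter through its brighter side alone, so the counts were also taken over genes detected in every channel of a comparison. There, 10 were higher and 3 lower of 32 in WT, against 9.19% and 6.49% of all genes so detected. In KO 12 were higher and 4 lower of 39, against 7.31% and 4.01%. Of 38 genes compared in both genotypes, 28 had the same sign in both (73.7%), as had 74.4% of all 14171 genes compared in both.

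The counts varied by subfamily. Secreted MMPs were higher in 4 of 6 cases in WT and in 3 of 6 in KO, with none lower and medians of 1.52 and 1.06. Over genes detected in every channel of the comparison they were higher in 2 of 4 cases in each genotype, since Mmp3 and Mmp9 in WT and Mmp13 in KO entered through high density alone. ADAMTS genes were higher in 4 of 10 cases in WT, with none lower, and in KO 8 of 13 were higher and 2 lower, with medians of 0.81 and 1.44. Over genes detected in every channel, 4 of 9 were higher in WT, and in KO 6 of 11 were higher and 2 lower, since Adamts8 and Adamts15 entered through high density alone. ADAMs had ratios closer to 0, with 2 higher and 2 lower of 13 in WT and 2 higher and 1 lower of 15 in KO, and medians of 0.41 and 0.28. Membrane MMPs had 1 higher and 1 lower of 4 in WT and 0 of 6 in KO, and TIMPs had 1 higher and 1 lower of 3 in WT and 1 higher of 3 in KO. ADAMTSL genes had 0 of 3 in WT and 1 higher and 1 lower of 4 in KO. The groups are small, and no difference between subfamilies was tested.

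**Figure D1:**
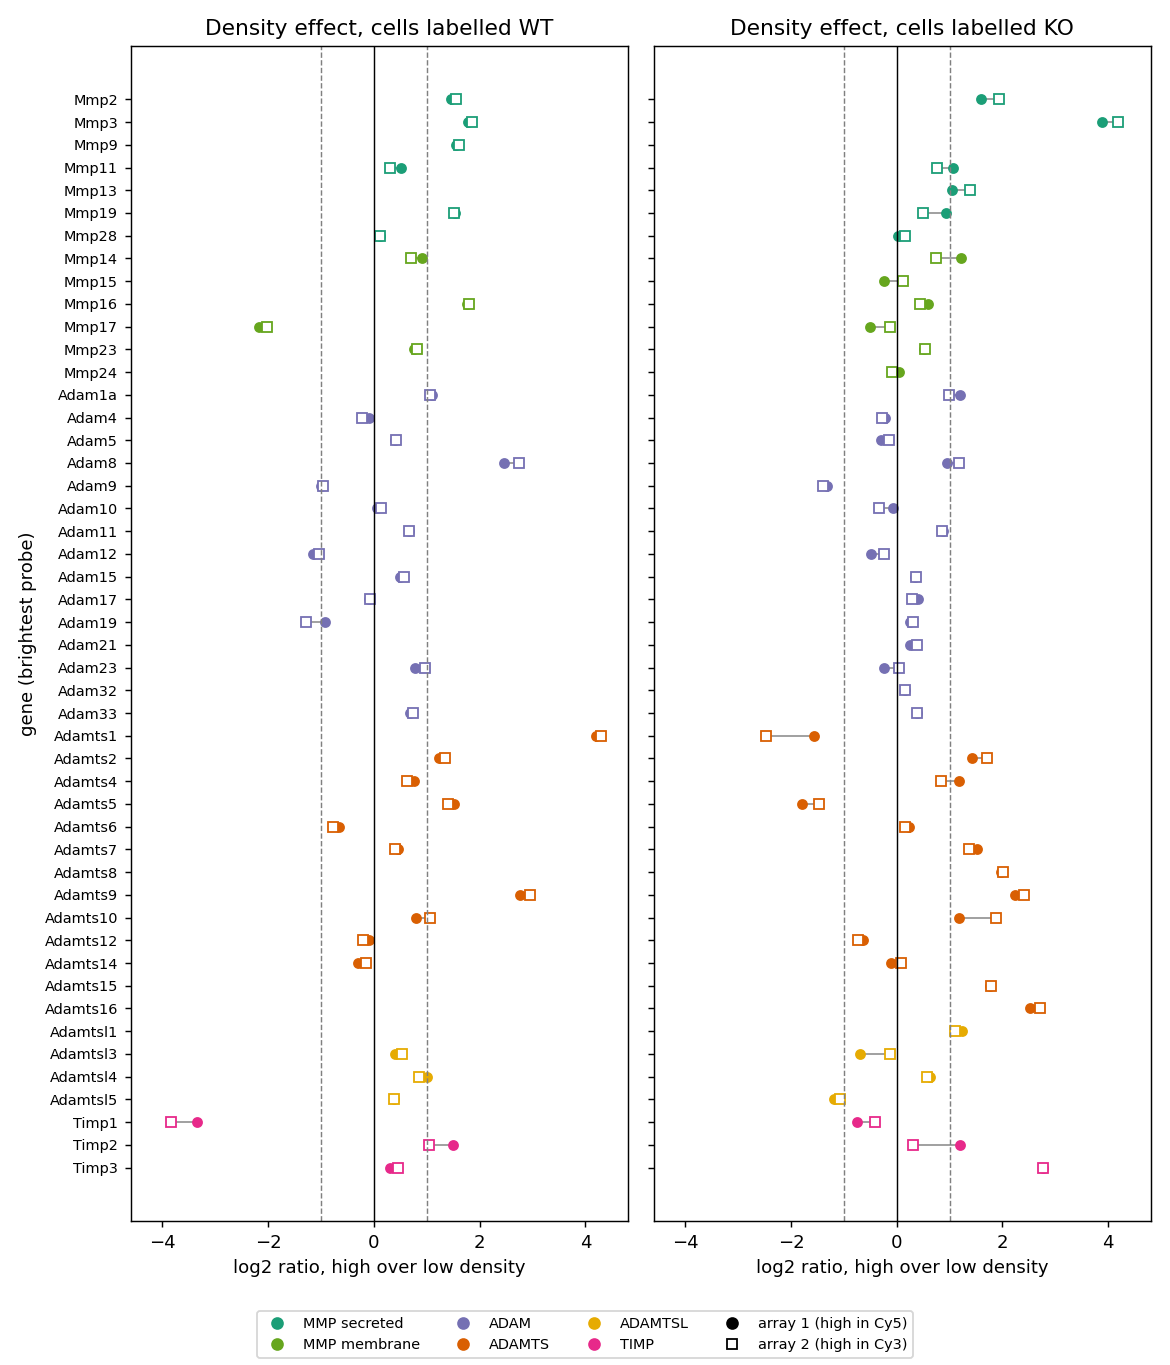
Density effect of each gene compared in WT (left) or KO (right), as the log2 ratio of high over low density on the x axis and 1 gene per row. Filled circles and open squares are the arrays of the dye swap, colours are subfamilies, and dashed lines mark a 2-fold difference. Adamts1 lies at 4.25 in WT and -2.02 in KO, and Timp1 at -3.59 in WT and -0.58 in KO.

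**Figure D2:**
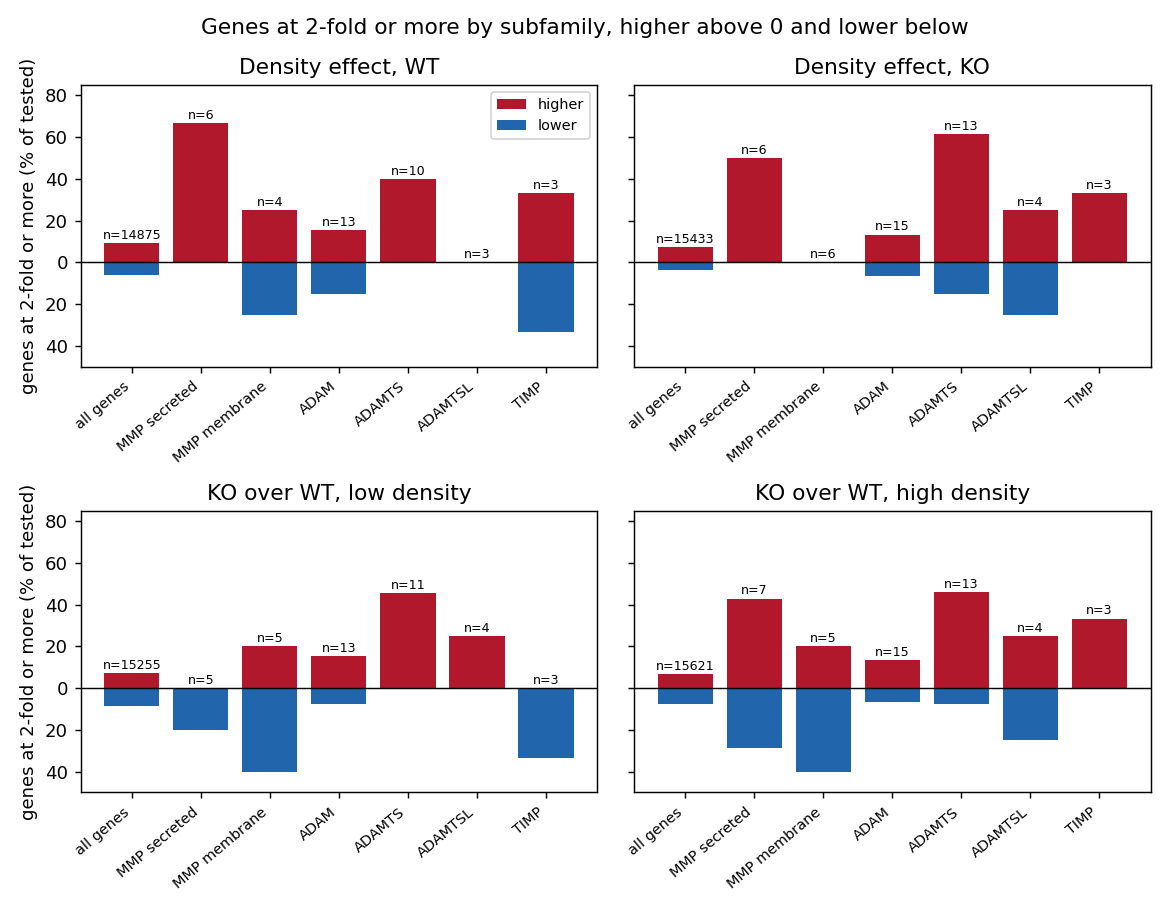
Share of the genes compared that were at least 2-fold higher (red, above 0) or lower (blue, below 0), in percent, for all genes and each subfamily. The 4 panels are the density effect in WT and KO and the KO over WT difference at low and high density, and n is the number of genes compared. ADAMTS genes show 8 of 13 higher with density in KO.

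Of the TIMPs, Timp1 was lower at high density in WT and Timp3 was higher at high density in KO. Timp1, a secreted inhibitor of most MMPs, had log2 signals of 17.72 and 17.35 on the arrays of WT cells at low density and of 14.37 and 13.51 at high density. In KO its signals were 14.91 and 14.66 at low and 14.17 and 14.25 at high density. WT cells at low density thus stood above the other conditions, all of which lay between 13.51 and 14.91. The summed epithelial markers were also highest in this condition, where Krt18 and Krt19 alone of them were detected. Timp1 was lower at high density in WT by 12.0-fold (log2 -3.59, with -3.34 and -3.83 on the single arrays), while the KO ratio was -0.58 and below the 2-fold limit. A second Timp1 probe gave -2.39 in WT and -0.76 in KO.

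Timp3, an inhibitor held in the matrix that also blocks ADAM17, had the reverse arrangement. Its signals were 12.77 and 12.76 in WT at low density, 13.07 and 13.22 in WT at high density, and 12.94 and 13.38 in KO at low density. In KO at high density they were 15.71 and 16.14, above every other channel. The summed macrophage markers were also highest in this condition, at 12.14 to 12.46, with Emr1, Ptprc and Itgam dark. Timp3 was higher at high density in KO by 6.79-fold (log2 2.76, with 2.77 and 2.76 on the single arrays), and its WT ratio was 0.38. Timp2, which takes part in the activation of pro-MMP2 by MMP14, was higher at high density in WT by 2.41-fold (log2 1.27), or 0.98 with median centring. Its KO ratio was 0.75, with 1.19 and 0.31 on the single arrays, which is a wide gap. Timp4 did not reach the detection asked for in any comparison.

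Among the secreted MMPs, Mmp2 and Mmp3 were higher at high density in both genotypes. Mmp2 (gelatinase A) had signals of 13.13 and 13.35 in WT at low density and of 14.58 and 14.91 at high density. In KO it had 11.43 and 11.40 at low and 13.04 and 13.34 at high density. The density ratios were 2.84-fold in WT and 3.41-fold in KO, and the genotypes differed in level rather than in the size of this ratio, their difference being 0.27 on the log2 scale. KO cells lay below WT cells at each density.

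Mmp3 (stromelysin-1), whose promoter window is printed above, was not well above background in WT at low density, with signals of 6.46 and 6.04. It reached 8.25 and 7.89 in WT at high density, and went from 7.14 and 6.74 to 11.01 and 10.93 in KO. The KO cells at high density were above all other conditions, as they were for Timp3 and the summed macrophage markers. The ratio was 16.4-fold in KO (log2 4.03) and at least 3.53-fold in WT. Since the WT value is a bound, the KO minus WT difference of 2.22 depends on how dim signals were handled, and it was -0.24 from the processed signals as deposited.

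At their brightest probes, Mmp9 (gelatinase B) and Mmp13 (collagenase-3) were detected in a single condition each. Mmp9 had 7.92 and 7.63 in WT at high density and 6.00 to 6.37 elsewhere, a density ratio of at least 2.97-fold in WT. A second Mmp9 probe was above background on 1 of 2 arrays of WT cells at low density (6.67 and 6.04) and on both at high density (7.83 and 7.42), and gave 2.41-fold. Mmp13 had 7.24 and 7.22 in KO at high density and 5.83 to 6.19 elsewhere, a density ratio of at least 2.13-fold in KO. Mmp19 was higher at high density in WT by 2.89-fold (log2 1.53), with 0.72 in KO. Mmp11 (stromelysin-3) had ratios of 0.41 and 0.91, both below the limit.

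Of the membrane MMPs, Mmp14 (MT1-MMP), the activator of pro-MMP2, had density ratios of 0.81 in WT and 0.98 in KO, and was not counted in either. Mmp16 (MT3-MMP) was higher at high density in WT by 3.42-fold (log2 1.78, with 1.76 and 1.79), and its KO ratio was 0.51. Mmp17, a glycolipid-anchored MMP, had signals of 9.57 and 9.64 in WT at low density and of 7.40 and 7.62 at high density. In KO it had 7.75 and 7.25 at low and 7.25 and 7.13 at high density. It was lower at high density in WT by 4.27-fold (log2 -2.09), and WT cells at low density stood above all others. They did so too for Timp1 and for the summed epithelial markers, of which Krt18 and Krt19 alone were detected there.

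Among the ADAMs, Adam8 was higher at high density in both genotypes, by 6.09-fold in WT (log2 2.61) and 2.09-fold in KO (log2 1.06). Its signals were 9.49 and 9.26 in WT at low density, 11.96 and 12.01 in WT at high density, 9.01 and 8.69 in KO at low density and 9.96 and 9.86 in KO at high density, so WT cells at high density stood highest. Adam1a, known for a subunit of the sperm protein fertilin, was higher by 2.11-fold and 2.12-fold. Adam9 was just under the limit in WT (log2 -0.99) and lower by 2.56-fold in KO (log2 -1.35). Adam12 (meltrin alpha) and Adam19 (meltrin beta) were lower at high density in WT, by 2.13-fold and 2.15-fold, with KO ratios of -0.37 and 0.28. Adam12 was above background on 1 of 2 arrays of WT cells at high density, so its fold depends on how dim signals were handled, and its log2 ratio of -1.09 became -2.11 with no offset in the background correction and -2.57 from the processed signals. Some of these lay near the limit, since without WT array 2 of the dye swap the WT ratio of Adam19 was -0.92, without KO array 1 the KO ratio of Adam1a was 0.98, and without KO array 2 that of Adam8 was 0.95. The main sheddases Adam10 and Adam17 had ratios between -0.21 and 0.34 and were not counted in either genotype.

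The density ratio had opposite directions in the genotypes at Adamts1 and Adamts5, enzymes that cut versican and aggrecan, whose genes are neighbours on chromosome 16. Their brightest probes lie at chr16:85683995-85684054 and chr16:85751628-85751687 (build mm8), within 67.7 kb. Adamts1 had signals of 10.96 and 11.14 in WT at low density and of 15.15 and 15.44 at high density. In KO it had 15.33 and 15.27 at low density and 13.77 and 12.79 at high density. The order was thus reversed between genotypes, with no overlap between the densities in either.

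Adamts1 was higher at high density in WT by 19.0-fold (log2 4.25, with 4.20 and 4.30 on the single arrays) and lower in KO by 4.06-fold (log2 -2.02, with -1.56 and -2.48). A second Adamts1 probe gave 3.41 in WT and -1.98 in KO. Adamts5 (aggrecanase-2) had signals of 10.95 and 10.99 in WT at low density, 12.46 and 12.40 in WT at high density, 13.27 and 13.16 in KO at low density and 11.48 and 11.68 in KO at high density. It was higher in WT by 2.75-fold (log2 1.46) and lower in KO by 3.10-fold (log2 -1.63), and its second probe gave 1.12 and -1.58. The same reversal was seen in both neighbours and with every probe of each.

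Of the remaining ADAMTS genes, Adamts2 and Adamts9 were higher at high density in both genotypes. Adamts9, another versican-cleaving enzyme, was higher by 7.24-fold in WT (log2 2.86) and 5.00-fold in KO (log2 2.32), but its other probes gave 0.43 and 0.76 in WT and 1.24 and 1.28 in KO. Adamts2, the main procollagen N-proteinase of skin, was higher by 2.43-fold in WT and 2.98-fold in KO. Its other 3 probes ran from -0.02 to 2.30 in WT, so the ratio depended on the probe. Adamts4 (aggrecanase-1), Adamts7 and Adamts10 were higher in KO, by 2.01-fold, 2.72-fold and 2.87-fold, with WT ratios of 0.69, 0.42 and 0.93. Without KO array 1 the ratio of Adamts4 was 0.84. Adamts6, Adamts12 and Adamts14 were not counted in either genotype, with ratios of -0.72, -0.14 and -0.23 in WT and of 0.20, -0.69 and -0.02 in KO.

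Of the rest, 3 ADAMTS genes were dark in WT at both densities and detected in KO. Adamts16 had signals of 8.47 and 8.48 in KO at low density and of 11.00 and 11.20 at high density, against 5.98 to 6.29 in WT. Its density ratio in KO was 6.15-fold (log2 2.62), while a second, dimmer probe was detected only in KO at high density and gave 0.35. Adamts8 and Adamts15, neighbours on chromosome 9 within 63.2 kb, were both detected in KO at high density only. Adamts8 reached 8.32 and 8.02 there, at least 3.87-fold above KO at low density, and Adamts15 reached 7.91 and 7.74, at least 3.28-fold above it.

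ADAMTSL genes moved in both directions. Adamtsl1 (punctin) was dark in WT and higher at high density in KO by 2.25-fold (log2 1.17). Adamtsl5 was lower at high density in KO by 2.19-fold (log2 -1.13), against a WT ratio of 0.38. For Adamtsl5 the probes disagreed, since one of its other probes gave -1.01 in WT and -0.98 in KO, and the third gave 0.28 and -0.97. Adamtsl3 and Adamtsl4 had density ratios between -0.40 and 0.93.

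The KO minus WT difference of the density ratio put these contrasts on 1 scale. It was at least 2-fold above 0 for 6 of 38 genes and below 0 for 5, with a median of -0.06. Over all 14171 genes, 4.55% were above 0 and 4.97% below 0 by this count. With each array's log ratios centred on the median in place of loess, the family's split was 5 above and 7 below 0. With no offset in the background correction it was 8 and 10, with processed signals 7 and 10, and with no filter 11 and 6. In this order, the shares of all genes were 4.15 and 6.06%, 6.1 and 7.45%, 7.49 and 8.47%, and 2.68 and 2.98%. The genes above 0 were Timp1 (3.01), Timp3 (2.38), Mmp3 (2.22), Mmp17 (1.78), Adam19 (1.39) and Adamts7 (1.02), the last of which was 0.97 without array 1 of both genotypes. Averaging all probes put that of Timp1 at 2.32. Those below 0 were Adamts1 (-6.27), Adamts5 (-3.09), Adam8 (-1.54), Adamtsl5 (-1.52) and Mmp16 (-1.26). Genes called in both genotypes were higher in both in 6 cases, lower in both in 0 and opposite in 2, Adamts1 and Adamts5. A further 7 were called in WT alone and 6 in KO alone, which does not by itself show that the genotypes differed there. Of the 38 genes these were 15.8, 0 and 5.26%, then 18.4 and 15.8%, against 3.97, 1.78 and 0.233%, then 9.41 and 5.31% of the 14171 genes compared in both. Over genes detected in every channel the counts were 5, 0 and 2, then 6 and 6, of 31. These were 16.1, 0 and 6.45%, then 19.4 and 19.4%, against 3.79, 1.85 and 0.216%, then 9.34 and 5.14% of 12945 genes.

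**Figure D3:**
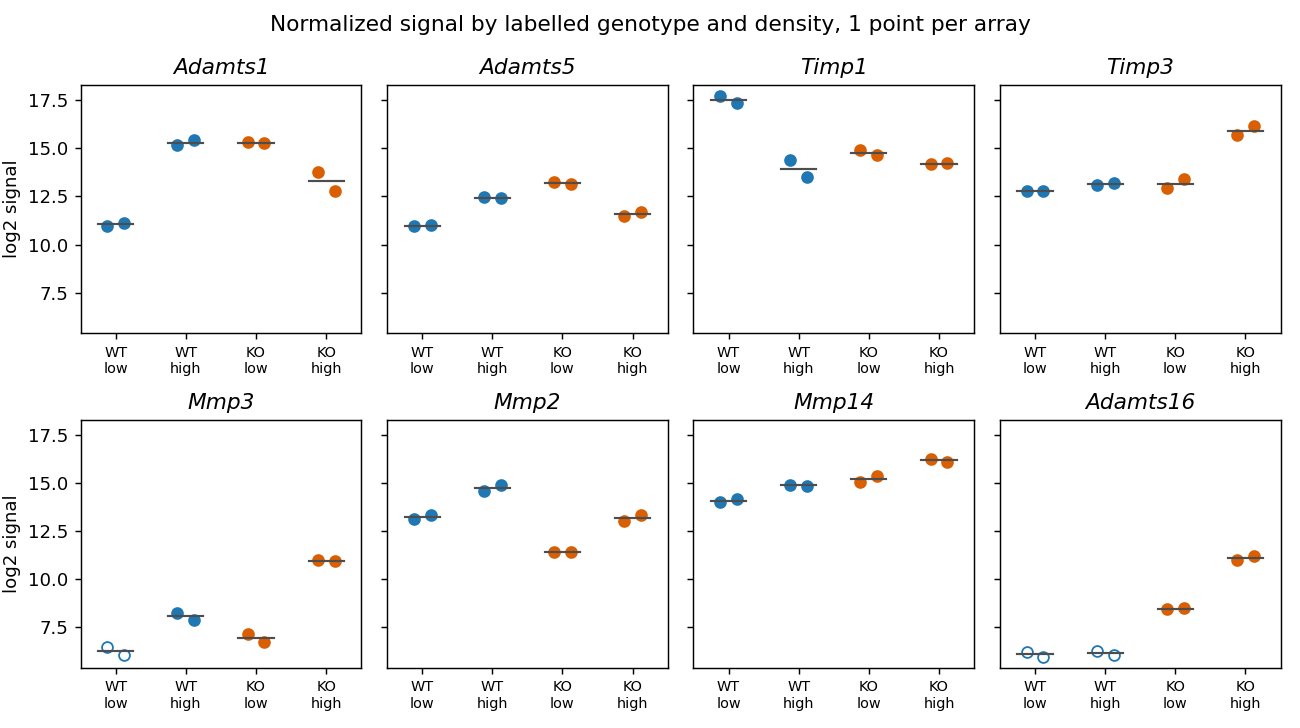
Normalized log2 signal of 8 genes (brightest probe) on the y axis in WT (blue) and KO (orange) at low and high density, with 1 point per array and a line at the mean. Open points mark conditions in which the gene was dark on 1 array or more. Adamts1 and Adamts5 cross over between genotypes, Timp1 is highest in WT at low density, and Timp3 and Mmp3 are highest in KO at high density.

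Compared at the same density, KO differed from WT more often towards higher signal. At low density, 9 of 41 genes were higher in KO and 5 lower, with a median log2 ratio of 0.33. Over all 15255 genes, 7.32% were higher and 8.36% lower, with a median of 0.03. At high density, 14 of 47 genes were higher in KO and 7 lower, with a median of 0.23, against 6.74% and 7.79% of 15621 genes. Over genes detected in every channel, 6 were higher and 5 lower of 33 at low density, against 6.92% and 7.98% of all genes so detected. At high density 9 were higher and 6 lower of 36, against 6.2% and 6.77%. Without scaling between arrays the median of all genes moved to 0.27 at both densities, and the share of higher genes among all called rose from 46.7 to 69.1% at low and from 46.4 to 66.6% at high density. The family's split was then 12 higher and 5 lower at low density, against 11.7% and 5.24% of all genes. At high density it was 15 higher and 6 lower, against 10.8% and 5.43%. The difference between the genotypes' density ratios is by construction also the change of this genotype ratio from low to high density.

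By subfamily, ADAMTS genes were higher in KO in 5 of 11 cases at low density, with none lower, and in 6 of 13 at high density, with 1 lower. Over genes detected in every channel they were higher in 4 of 10 at low density and in 3 of 9, with 1 lower, at high density, since Adamts16 at low and Adamts8, Adamts15 and Adamts16 at high density entered through KO alone. Secreted MMPs had 0 higher and 1 lower of 5 at low density, and 3 higher and 2 lower of 7 at high density. Over genes detected in every channel this was 0 higher and 1 lower of 3, and 2 higher and 1 lower of 5. Membrane MMPs had 1 higher and 2 lower of 5 at each density. ADAMs had 2 higher and 1 lower of 13 at low density and of 15 at high density, and TIMPs had 1 lower of 3 at low and 1 higher of 3 at high density. ADAMTSL genes had 1 higher of 4 at low density and 1 higher and 1 lower of 4 at high density. The higher one was Adamtsl1, which entered through KO alone, and over genes detected in every channel there were 0 higher of 3 at low density and 0 higher and 1 lower of 3 at high density.

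Of 40 genes compared at both densities, 7 were higher in KO at both (17.5%), against 3.79% of 14739 genes. Adam23, Adamts16 and Adamtsl1 entered through KO alone at 1 or both densities, and over genes detected in every channel 4 of 31 members were higher at both (12.9%), against 3.15% of 12945 genes. Adam17, the sheddase of TNF and of several EGF receptor ligands, was higher by 2.05-fold at low and 2.74-fold at high density. Its log2 signals were 9.44 to 9.58 in WT and 10.55 to 11.00 in KO, and its second probe gave 2.18-fold and 2.76-fold. Adam10 had ratios of 0.86 and 0.55 and was not counted. Adam23, an ADAM without protease activity that is known from the nervous system, was higher by at least 5.48-fold at low and by 2.82-fold at high density. Of its other probes, 1 gave at least 1.90-fold and 2.74-fold and the last was dark in every channel.

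The others of the 7 were Adamts9, Adamts10, Adamts16, Adamtsl1 and Mmp14. Adamts16 was higher in KO by at least 4.97-fold at low and at least 28.3-fold at high density at its brightest probe. Its second probe was dark in both genotypes at low density and gave a log2 ratio of 0.47 at high density, under the limit, so the size of this ratio rests on 1 probe, and averaging the probes gave a log2 ratio of 2.69 in place of 4.91. Adamtsl1 was higher by at least 2.61-fold and at least 5.50-fold at its brightest probe, and by at least 1.17-fold and 2.45-fold at its second. Adamts10 was higher by 2.17-fold and 3.27-fold. Adamts9 was higher by 5.97-fold and 4.12-fold at its brightest probe, whereas its other probes gave log2 ratios of -0.57 and 0.87 at low density and 0.23 and 1.39 at high density. Mmp14 was higher by 2.19-fold and 2.46-fold at its brightest probe, with signals of 13.99 to 14.91 in WT and 15.05 to 16.26 in KO. A second Mmp14 probe gave log2 ratios of 0.13 and -0.06, so the Mmp14 difference rests on 1 probe.

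Mmp2 and Mmp23 were lower in KO at both densities (5.00%), against 4.25% of all genes. Mmp2 was lower by 3.54-fold at low and 2.95-fold at high density. Mmp23, a membrane MMP of unusual domain structure, had signals of 9.46 and 9.55 in WT at low density and of 10.22 and 10.37 at high density. In KO it had 6.72 and 6.58 at low and 7.25 and 7.11 at high density, so it was lower by 7.24-fold and 8.64-fold with no overlap of the genotypes. Within each genotype its density ratio stayed under the 2-fold limit (0.78 in WT and 0.53 in KO).

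Adamts1 was higher in KO by 19.1-fold at low density and lower by 4.04-fold at high density (log2 -2.01, with -1.39 and -2.64 in the single dyes), and was the gene counted at both densities in opposite directions. Genes counted at low density alone were Adamts5 (log2 2.24), Timp1 (-2.75), Adam19 (-2.20) and Mmp17 (-2.10). Averaging all probes put the Adam19 ratio at -1.41. The Timp1 probes disagreed at high density, where the brightest gave 0.26 and the second -1.33. At high density alone the counted genes were Mmp3 (log2 2.90), Timp3 (2.78), Adamts7 (2.64-fold), Mmp11 (1.02), Mmp16 (-1.05), Adamtsl3 (-1.56) and Adam8 (-2.07). Without array 2 of both genotypes the ratio of Mmp16 was -0.95. That of Mmp11 was 0.93 with median centring and 0.98 with processed signals, and it also fell under the limit without array 1. Averaging all probes put the ratio of Adamtsl3 at -0.79.

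A further 4 genes were counted at high density that could not be compared at low density, where neither genotype had their brightest probe above background on both arrays. Adamts8, Adamts15 and Mmp13 were higher in KO by at least 3.87-fold, 3.04-fold and 2.02-fold. Mmp9 was lower in KO, by at least 3.13-fold. KO cells at high density thus had signal from Mmp13 and the WT cells from Mmp9, each of which was dark at every probe in the other genotype at both densities.

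**Figure D4:**
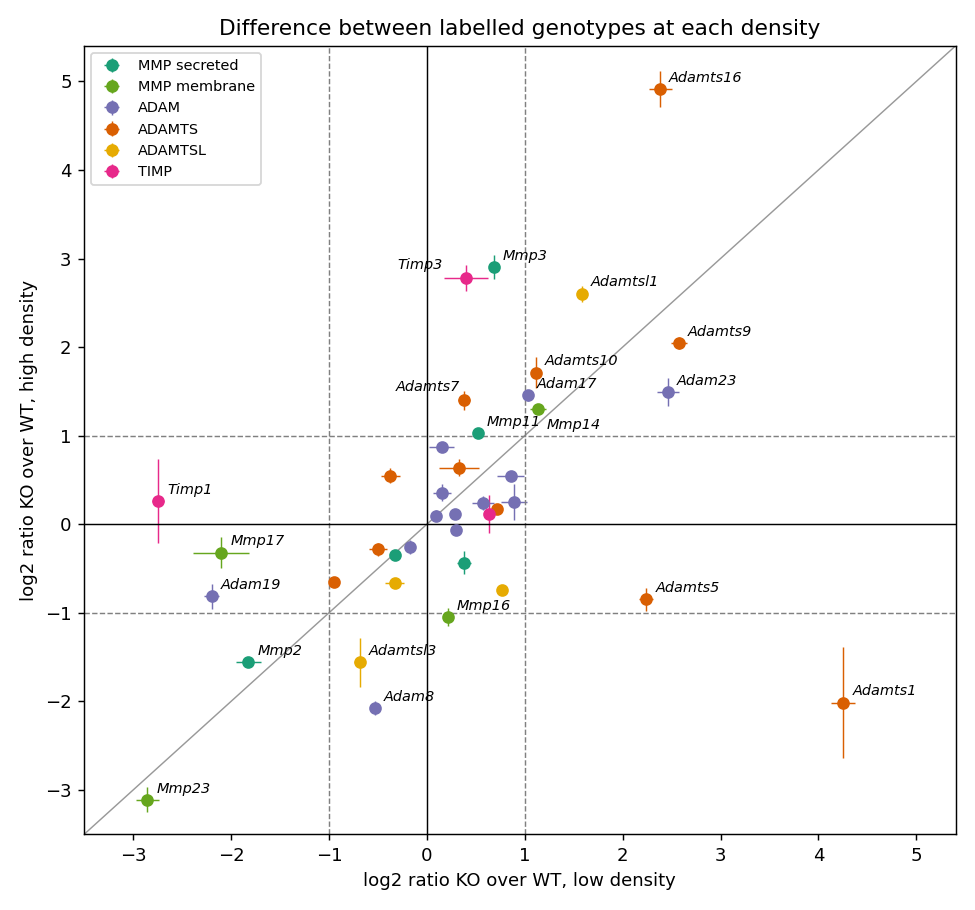
Log2 ratio of KO over WT at low density (x axis) and at high density (y axis) for the 40 genes compared at both. Bars span the values of the 2 dyes, dashed lines mark a 2-fold difference, the grey diagonal marks an equal ratio, colours are subfamilies and counted genes are named. Adamts1 lies at 4.25 and -2.01, Adamts16 at 2.38 and 4.91, and Mmp23 at -2.86 and -3.11.

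Other genes of pericellular proteolysis were taken from a list of 31 regulators (proprotein convertases, plasminogen activators, cathepsins and inhibitors) and 24 substrates. Of the regulators, 8 were higher and 5 lower of 25 at high density in WT, and 8 higher and 4 lower of 21 in KO. Of the substrates, 3 were higher and 4 lower of 18 in WT, and 5 higher and 2 lower of 16 in KO. The shares over all genes were those given above, 9.41% higher and 6.09% lower in WT and 7.15% higher and 3.87% lower in KO. Plaur, the urokinase receptor, was lower at high density by 4.93-fold in WT and 4.98-fold in KO. Reck, a membrane inhibitor of several MMPs, was higher by 3.49-fold and 2.68-fold. Tll1, a procollagen C-proteinase, was lower by at least 5.66-fold in WT, where it was dark at high density, and by 2.92-fold in KO.

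Among the substrates, Col3a1 was higher by 17.7-fold in WT and 10.8-fold in KO, and Hbegf, a growth factor precursor that ADAMs shed, was lower by 5.63-fold and 2.63-fold. The other fibrillar collagens were counted in KO alone. Col1a1 and Col1a2 were higher there by 4.47-fold and 4.76-fold and Col2a1 by 7.28-fold, with WT log2 ratios of 0.50, 0.56 and -0.48. Their KO minus WT differences of 1.66, 1.69 and 3.34 were all above the 2-fold limit.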

How the data were processed

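The members and gene lists were chosen with earlier results of these data known. Per the file headers, the authors extracted the arrays with Agilent Feature Extraction (10.5.1.1 in the submitters' processing notes), and the deposited scanner files hold raw mean spot intensity and local background intensity for Cy3 and Cy5, the processed signal intensity and a log10 ratio. The deposited series matrix holds the same log10 ratio, rounded, as high over low density. Symbols and probe positions (mm8) are those of the array. All 76 symbols matched RefSeq names, and exons were not assigned. Proteins were not used here, so ADAMs were not split by protease motif.

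From the raw intensity, background was corrected by normexp (offset 50), which shrinks ratios of dim probes, and arrays were loess normalized (R 4.3.3, limma 3.58.1). Control spots had weight 0, outlier features (107 to 224 per array) were left out, and no feature was saturated on any array. Density values are log2 ratios averaged over the dye swap. Genotype values compare single channels in the same dye after Aquantile scaling. The size rule was tested on simulated data for the WT density effect, where 190 of 200 features with a log2 change of 2 were recovered among 22310, and 0 unchanged ones were called. Its precision covers technical error only. For a gene dark on one side, a dim signal under that of the dimmest detected probe of its array was raised to it before averaging, and the fold is given as at least that value. Members called in a comparison are named, with the TIMPs, Mmp2, Mmp14, Adam10 and Adam17, and of the lists at most 6 called genes per density comparison by size, of which a withheld item is not reported here. Alternatives covered background, normalization, scaling, filter, fold, probe and array.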

Additional observations from a re-analysis of the deposited data

Results flagged for a closer look

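For the density ratio, 9 of 38 genes had both WT arrays on one side of 0 and both KO arrays on the other. The share of all genes with this pattern was not counted. By the sign of the mean ratio, 73.7% of the 38 genes and 74.4% of all 14171 genes agreed between the genotypes. The KO minus WT differences were -6.27 for Adamts1, -3.09 for Adamts5, -1.52 for Adamtsl5, -0.87 for Adamtsl3, -0.64 for Adam5, -0.31 for Adam10, 0.42 for Adam17, 0.92 for Adamts6 and 1.39 for Adam19, on the log2 scale. In this list 4 differences were at least 2-fold, and those of Adam10 and Adam17 rest on ratios close to 0. For Adamtsl5, 1 of the 4, another probe gave -1.01 in WT and -0.98 in KO, and averaging all probes put its difference at -0.91. A further count gave 7 of 40 genes with a KO over WT ratio of one sign in both dyes at low density and of the other at high density. The share of all genes was not counted for this pattern either. By the sign of the mean ratio, 80% of the 40 genes and 74.9% of all 14739 genes agreed between the densities. The change from low to high density was -6.27 for Adamts1, -3.09 for Adamts5, -1.52 for Adamtsl5, -1.26 for Mmp16, -0.81 for Mmp19, -0.37 for Adam9 and 0.92 for Adamts6. With 1 replicate per genotype and density, none of these differences was tested.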

How the results depend on the processing

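Of the calls, 13 of 16 for the density ratio in WT and 16 of 19 in KO held under every alternative that compared the gene. For the KO minus WT difference 8 of 11 held, and for KO over WT 12 of 14 at low and 17 of 21 at high density. Detection in every channel left out Adam12, Mmp3 and Mmp9 in WT, Adamts8, Adamts15 and Mmp13 in KO, and Mmp3 for the difference. For KO over WT it left out Adam23, Adamts16 and Adamtsl1 at low density. At high density it left out Adamts8, Adamts15, Adamts16, Adamtsl1, Mmp9 and Mmp13. These calls were not checked under that alternative. The single reversal was Mmp3, whose difference of 2.22 became -0.24 with processed signals. Averaging all probes ended the calls of Adam19 (-0.86) and Adamts2 (0.99) in WT, of Adamtsl5 for the difference (-0.91), of Adamts9 (0.96) and Mmp14 (0.63) at low density and of Adamtsl3 (-0.79) and Mmp14 (0.62) at high density. Leaving out WT array 2 of the dye swap ended the call of Adam19 (-0.92), leaving out KO array 1 those of Adam1a (0.98) and Adamts4 (0.84), and leaving out KO array 2 that of Adam8 (0.95). Without array 1 of both genotypes Adamts7 (difference, 0.97) and Mmp11 (high density) fell under the limit, and without array 2 Mmp16 did (-0.95). Median centring ended calls of Timp2 in WT (0.98), Adam8 (0.92) and Adamts4 (0.89) in KO, Adamts7 (0.99) and Mmp11 (0.93), processed signals that of Mmp11 (0.98), and no scaling that of Mmp16 (-0.77).

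With an offset of 0 the median ratio was 0.86 in WT and 0.69 in KO. Of 38 differences 8 were above and 10 below 0, against 6.1% and 7.45% of all genes. At low density 14 of 41 genes were higher in KO, against 11.8% of all genes. Processed signals gave a KO median of 0.76 (0.76 with the series matrix). There, 7 differences were above and 10 below 0, against 7.49% and 8.47% of all genes. At low density 15 genes were then higher in KO, against 13.9% of all genes. With no filter the medians were 0.0686 in WT, 0.0821 in KO and 0.10 at low density. Of 76 differences 11 were then above and 6 below 0, against 2.68% and 2.98% of all genes. Detection in every channel left 9 of 36 genes higher at high density, against 6.2% of all genes. No scaling gave a median of 0.58 at low density. Over all genes, median centring moved the share of higher calls from 60.7 to 47.0% in WT and from 64.9 to 42.8% in KO. At 1.4-fold 21 of 39 genes were higher in WT and 23 of 47 in KO, against 23.5% and 21.5% of all genes. Of 38 differences 10 were above and 12 below 0, against 15.5% and 15.9%. At low density 17 of 41 genes were higher and 9 lower in KO, against 20.7% and 22% of all genes. At high density 12 of 47 were lower, against 20.2%. A slide block and the methods' t-test were not run, since each slide held 1 genotype and each group 1 replicate. No paired analysis was possible because each group had 1 replicate. Dim signals limit Mmp3, Mmp9, Mmp13, Adamts8, Adamts15, Adamts16, Adam23 and Adamtsl1 to bounds on at least one side, and Adam12 was dark on 1 of 2 arrays of WT cells at high density.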
